A study of Oryza sativa with 8 samples.

Results

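Uptake of nitrate and ammonium by rice roots was followed through 8 genes, picked by locus identifier from the 37869 genes of the deposited expression table. They are 3 genes of the NRT2 family (Os02g0112100, Os02g0112600 and Os01g0704100), OsNAR2.1 (Os02g0595900), OsNRT1.1B (Os10g0554200), and 3 genes of the AMT1 family (OsAMT1;1, which is Os04g0509600, with Os02g0620500 and Os02g0620600). Gene family was the ground for the choice, and no expression value entered the rule. The choice was made with earlier results of these data known. The roots came from 2-week-old plants of the cultivar Ilmi, either nontransgenic (NT) or ROX OsERF48, in which the root-specific RCc3 promoter drives OsERF48, a gene for an AP2/ERF transcription factor. Plants of all groups germinated on MS medium and grew on in soil pots in a greenhouse under normal conditions, 3 to a pot, so no stress treatment is part of the comparison. The ROX plants belong to 2 transgenic lines, ROX#2 and ROX#6, and the study worked with homozygous lines that carry a single copy. In RNA from whole roots, fewer cells of a type and less RNA per cell cannot be told apart.

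Plant roots take up nitrogen as nitrate and as ammonium through different families of membrane proteins. NRT2 proteins carry nitrate with high affinity when it is scarce, and in rice some of them work together with the small partner protein NAR2. OsNRT1.1B belongs to the larger NRT1/NPF family and takes part in nitrate uptake, in nitrate transport to the shoot and in nitrate sensing. AMT1 proteins carry ammonium, which is the main form of nitrogen in flooded paddy soil. Inside the cell, nitrate is reduced by nitrate reductase and nitrite reductase to ammonium, which glutamine synthetase and glutamate synthase build into amino acids.

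The 4 NT and 4 ROX libraries form 2 sets of 2 NT and 2 ROX libraries each, which are called Root and Set after the words in their column names. No name tells the transgenic line, and the Set names give neither promoter, tissue nor cultivar, so a difference between the sets cannot be told apart from one in line, harvest or experiment. The study describes 2 biological replicates with 2 technical replicates each, and the names do not show which libraries share plants, so the p-values measure a spread that may be technical in part. Estimated depth was 37300000 to 42900000 fragments in the Root and 46000000 to 49800000 in the Set libraries. Levels are given as FPKM, in which fragment numbers are corrected for transcript length and library depth. Pearson correlations of log2(FPKM + 1) across all genes were 0.962 to 0.997 between libraries of the same set and 0.828 to 0.888 between sets. OsERF48 (Os08g0408500) was at 86.6 and 86.2 FPKM in Root NT, 464 and 470 in Root ROX, 65.9 and 59.3 in Set NT, and 816 and 612 in Set ROX, so every ROX library was above every NT library. The 3 root markers (RCc3, Lsi1 and Lsi2) summed to between 1452 and 2338 FPKM in every library, with lower sums in Root ROX (1452 and 1532) than in Root NT (2010 and 1971). They moved in different ways: RCc3 was at 321 and 307 FPKM in Root NT, 152 and 161 in Root ROX and 1236 to 1608 in Set, whereas Lsi1 was at 993 to 1304 in Root and 502 to 598 in Set. The 6 leaf markers, Rubisco small subunits, chlorophyll-binding proteins and PsbO, summed to 33.3 and 31.5 FPKM in Root NT against 15.2 and 15.3 in Root ROX, and to 14.3 and 11.3 in Set NT against 6.15 and 5.46 in Set ROX. None of the 6 was at 0 in any library. The leaf marker sum was therefore lower in ROX than in NT in both sets and lower in Set than in Root, although the chlorophyll-binding protein gene Os09g0346500 was higher in Set and the Rubisco gene Os12g0292400 overlapped between Set NT and Set ROX. The part of the root and leaf markers in the results on the uptake genes was not tested.

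The clearest difference between ROX and NT roots among the uptake genes was in OsNRT1.1B, which was 2.18-fold higher in ROX in the Root libraries and 2.31-fold higher in the Set libraries. OsAMT1;1 was above NT in every ROX library of its set, by 1.13-fold and 1.21-fold, but did not pass the test. Of all genes tested, 7.36% were likewise higher in ROX without overlap in both sets. The 3 NRT2 genes and Os02g0620600 were lower in ROX without overlap in the Root libraries, as were 47.4% of all genes tested, whereas their ROX and NT libraries overlapped in the Set libraries. OsNAR2.1 overlapped in both sets, and Os02g0620500 was close to 0 everywhere. A larger contrast separated the library sets: in NT roots, 6 uptake genes were called as higher in Set than in Root. They ran from 2.61-fold for OsAMT1;1 to 19.5-fold for OsNRT1.1B. Beside them, 37.8% of all genes tested were called as higher in Set NT and 69% in either direction.

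**Figure D1:**
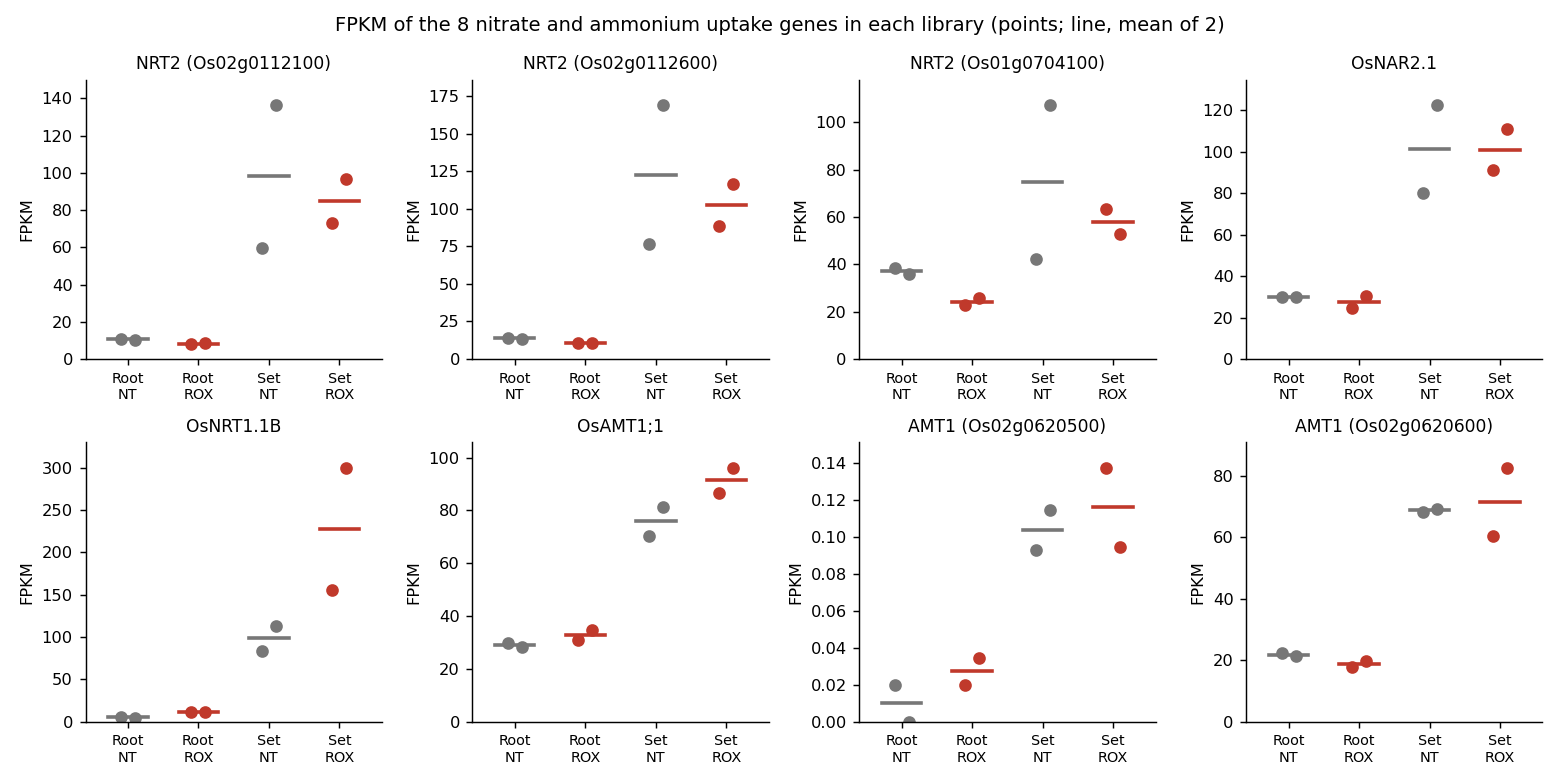
FPKM of each of the 8 uptake genes, on linear axes that start at 0 and differ between panels. Points are libraries, NT in grey and ROX in red, and lines are means of 2 libraries. OsNRT1.1B rises from 5.19 and 4.95 in Root NT to 156 and 300.0 in Set ROX, and in the Set NT pair the NRT2 genes lie far apart.

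Os02g0112100 and Os02g0112600, a neighbouring pair of NRT2 genes, encode high-affinity nitrate carriers. Os02g0112100 lies on chromosome 2 from 655324 to 657243 (IRGSP-1.0) and Os02g0112600 from 667264 to 669053, with 10020 bases between them, and each has 1 transcript without an intron. The deposited annotation describes both as similar to BCH2. Since they are near-identical copies, the division of fragments between them is uncertain. Counts of uptake genes hold them as separate genes, although they may carry a single signal, and their order by level is uncertain too.

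Os02g0112100 was at 11.0 and 10.1 FPKM in Root NT and at 8.01 and 8.60 in Root ROX. The Set libraries had it at 59.8 and 136 FPKM in NT and at 73.3 and 96.4 in ROX. Both Root ROX libraries lay below both Root NT libraries, while the Set ROX libraries fell between the NT libraries. Os02g0112600 was at 14.2 and 13.4 FPKM in Root NT, 10.5 and 10.9 in Root ROX, 76.3 and 169 in Set NT, and 88.5 and 117 in Set ROX. It showed the same order of libraries, and the ratio of Os02g0112600 to Os02g0112100 stayed within 1.21 to 1.33 in all 8 libraries. Over both sets, the log2 fold change (ROX minus NT) of Os02g0112100 was -0.21 with a 95% interval of -0.75 to 0.34 (limma, adjusted p = 0.591). That of Os02g0112600 was -0.25 with an interval of -0.78 to 0.28 (limma, adjusted p = 0.497).

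The second library of the Set NT pair was 2.28-fold above the first for Os02g0112100 and 2.21-fold above it for Os02g0112600, whereas the same ratios in the Root pairs were between 0.916 and 1.07. The spread within the Set NT pair was thus larger than the distance between the genotype means of that set, which were 98.1 ± 54.1 FPKM (SD, n = 2) in NT and 84.9 ± 16.4 (SD, n = 2) in ROX for Os02g0112100. The Set values of these genes accordingly fix neither the size nor the sign of a genotype difference. Leaving out the second Set NT library turned the Set log2 fold change of Os02g0112100 from -0.10 to 0.48, and leaving out the first moved it to -0.69.

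Os01g0704100, the NRT2 gene on chromosome 1 (29188850 to 29190936), is described in the deposited annotation as similar to NRT2.5. It was at 38.5 and 36.1 FPKM in Root NT and at 22.7 and 25.7 in Root ROX. Among the Set libraries it was at 42.2 and 107 FPKM in NT and at 63.2 and 52.8 in ROX. The Root ROX libraries were both below the Root NT libraries, and the Set ROX libraries again fell between the 2 NT libraries. Its log2 fold change was -0.61 in the Root libraries (95% interval -1.46 to 0.24, limma, adjusted p = 0.229) and -0.41 over both sets (-1.02 to 0.20, limma, adjusted p = 0.335). This gene hinged on the Set NT pair, which differed by 2.54-fold. Without the first Set NT library its log2 fold change over both sets was -0.72 (limma, adjusted p = 0.0199) and in the Set libraries -0.88 (limma, adjusted p = 0.0199), and without the second it was 0.44 in the Set libraries (limma, adjusted p = 0.0839). Across all 19 alternatives the adjusted p over both sets ran from 0.0199 to 1.

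Of the 2 annotated transcripts of Os01g0704100, Os01t0704100-02, which has no intron, held 76.8% to 89.4% of the FPKM of the gene, and Os01t0704100-01, which lacks 90 bases of intron, held the rest. The shares of Os01t0704100-02 were 77.9% and 76.8% in Root NT, 83.4% and 79.7% in Root ROX, 83.7% and 89.4% in Set NT, and 86.1% and 84.2% in Set ROX. Both Root ROX libraries were above both Root NT libraries in this share, and the Set libraries overlapped. How often such shares separate among all genes was not counted. For levels of whole genes, 29.5% were higher and 47.4% lower in Root ROX without overlap, so a separation in Root is common. The shares were estimated by the authors' pipeline from transcripts that overlap over most of their length, and they were not tested.

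OsNAR2.1, a partner protein of NRT2 carriers, lies on chromosome 2 from 23121315 to 23123139 and has 1 transcript with 295 bases of intron. Its level was 30.0 and 29.8 FPKM in Root NT, 24.7 and 30.6 in Root ROX, 80.3 and 122 in Set NT, and 91.1 and 111 in Set ROX. ROX and NT libraries overlapped in both sets. Its log2 fold change over both sets was -0.05, with an interval of -0.38 to 0.28 (limma, adjusted p = 0.843). The summed FPKM of the 3 NRT2 genes was 2.12 and 1.99 times that of OsNAR2.1 in Root NT and 1.66 and 1.47 times in Root ROX. For the Set libraries the same ratio was 2.22 and 3.37 in NT and 2.47 and 2.40 in ROX. Summed over the 3 genes, the FPKM of NRT2 was thus above that of the partner in every library, by least in Root ROX. This ratio was given no test.

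OsNRT1.1B, the nitrate transporter and sensor of the NRT1/NPF family, spans chromosome 10 from 21757771 to 21762202. It was at 5.19 and 4.95 FPKM in Root NT and at 10.9 and 11.2 in Root ROX. The Set values were 84.0 and 113 FPKM in NT and 156 and 300.0 in ROX. In each set both ROX libraries were above both NT libraries, and the Set ROX libraries were the farthest apart, with the second 1.92-fold above the first. Mean FPKM was 5.07 ± 0.170 (SD, n = 2) for Root NT against 11.1 ± 0.168 (SD, n = 2) for Root ROX. It was 98.7 ± 20.7 (SD, n = 2) for Set NT against 228 ± 102 (SD, n = 2) for Set ROX.

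Over both sets the log2 fold change of OsNRT1.1B was 1.07 with a standard error of 0.19 and a 95% interval of 0.61 to 1.52 (limma with Benjamini-Hochberg adjustment, adjusted p = 0.0240). It was the only called gene among the 7 uptake genes tested, a count to be read against 7.07% of all 26136 genes tested that were called in either direction, 2.74% as higher and 4.34% as lower. In the Root libraries its log2 fold change was 0.99 (limma, adjusted p = 0.0286), again as the only called gene of the 7, beside 35.7% of all genes called and 14.4% called as higher. In the Set libraries it was 1.14 with an interval of 0.49 to 1.79, which missed the threshold after adjustment (limma, adjusted p = 0.0518), and none of the 7 was called there, beside 7.56% of all genes. The Set columns are numbered set 1 and set 2, each with 1 NT and 1 ROX library, and with this number as a replicate block OsNRT1.1B was called in Set (limma, adjusted p = 0.00672, over all alternatives 0.00357 to 0.218). The count of uptake genes with an unadjusted p under 0.05 in the Set libraries was 2, OsNRT1.1B and OsAMT1;1, beside 24.4% of all genes. At the limits of the study's methods, a 2-fold change with an unadjusted p under 0.05, OsNRT1.1B was called over both sets and in Set but not in Root, where it fell short of 2-fold on the fitted scale, and 1.31%, 0.888% and 3.96% of all genes were called as higher. The difference of the effect between the sets was 0.15 (interval -0.77 to 1.07, limma, adjusted p = 0.816).

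The call of OsNRT1.1B in the Root libraries was lost when any single Root library was left out, with log2 fold changes of 0.96 to 1.02. Without a filter on low values it was lost as well (limma, adjusted p = 0.0522). The call of OsNRT1.1B over both sets did not hold in several refits either. It was lost without the first or second Root NT library (limma, adjusted p = 0.0765 and 0.0825), without the first or second Root ROX library (0.0759 and 0.0784) and without the first Set NT library (0.0548), while its log2 fold change kept to between 0.86 and 1.24 in all 8 refits that left out a library. It was also lost when the libraries of each pair were averaged (limma, adjusted p = 0.606) and when the library set was not in the fit (limma, adjusted p = 1), and 12 of 19 alternatives kept it.

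Both annotated transcripts of OsNRT1.1B were higher in ROX. Os10t0554200-02 was at 3.99 and 3.38 FPKM in Root NT against 7.38 and 8.80 in Root ROX, and at 57.8 and 80.5 in Set NT against 108 and 203 in Set ROX. Os10t0554200-01 was at 1.20 and 1.57 FPKM in Root NT against 3.56 and 2.38 in Root ROX, and at 26.2 and 32.8 in Set NT against 48.0 and 96.5 in Set ROX. Neither transcript overlapped between genotypes in either set. Os10t0554200-02 held 67.4% to 78.7% of the FPKM of the gene, with overlap between ROX and NT in both sets, so no shift between the transcripts could be seen.

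**Figure D2:**
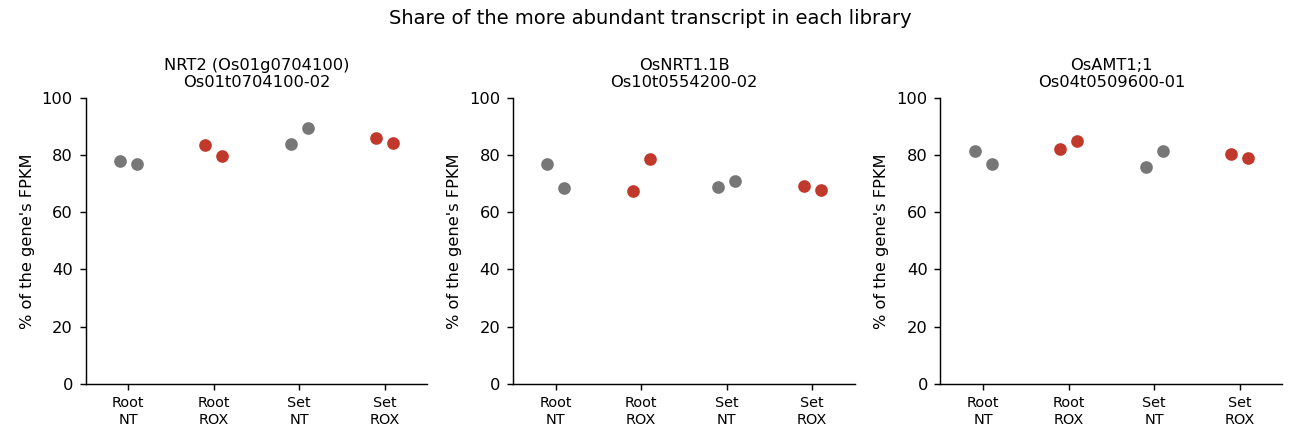
Share of the FPKM of a gene, in percent from 0 to 100, held by its more abundant transcript for Os01g0704100, OsNRT1.1B and OsAMT1;1. Points are libraries, NT in grey and ROX in red. The share was at least 67.4% in every library, and it separates ROX from NT only in the Root libraries, for Os01t0704100-02 and Os04t0509600-01. These separations were not tested, and how often they occur among all genes was not counted.

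Within a library, the balance between OsNRT1.1B and the NRT2 genes moved with genotype. The FPKM of OsNRT1.1B divided by the summed FPKM of the 3 NRT2 genes was 0.0814 and 0.0831 in Root NT against 0.266 and 0.248 in Root ROX. In the Set libraries it was 0.471 and 0.275 in NT against 0.694 and 1.13 in ROX. ROX was above NT without overlap in both sets. This ratio does not depend on the scaling of a library, but it was chosen after its values were seen and was given no test.

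AMT1 proteins carry ammonium across the plasma membrane. OsAMT1;1 lies on chromosome 4 from 25500515 to 25502557 and overlaps Os04g0509500, a hypothetical gene with at most 0.0972 FPKM in any library. Its level was 29.8 and 28.4 FPKM in Root NT, 31.1 and 34.7 in Root ROX, 70.4 and 81.3 in Set NT, and 86.8 and 96.1 in Set ROX. Both ROX libraries were above both NT libraries in each set, as for OsNRT1.1B. Among all genes tested, 7.36% were higher in ROX without overlap in both sets. The log2 fold change of OsAMT1;1 over both sets was 0.22 with an interval of 0.06 to 0.38, and it missed the threshold after adjustment (limma, adjusted p = 0.0990). Of its 2 transcripts, neither of which has an intron, Os04t0509600-01 held 75.7% to 85.0% of the FPKM, with 81.5% and 76.9% in Root NT, 82.3% and 85.0% in Root ROX and overlapping shares in the Set libraries.

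Os02g0620600 and Os02g0620500 are neighbours on chromosome 2, at 24690884 to 24692736 and 24683709 to 24685205, with 5678 bases between them and 1 transcript without an intron each. The deposited annotation likens Os02g0620500 to Amt1;2. Os02g0620600 was at 22.2 and 21.3 FPKM in Root NT, 18.0 and 19.9 in Root ROX, 68.4 and 69.4 in Set NT, and 60.6 and 82.7 in Set ROX. The Root ROX libraries were below the Root NT libraries, and in the Set libraries ROX lay on both sides of NT. Its log2 fold change was -0.19 in the Root libraries (95% interval -0.50 to 0.12, limma, adjusted p = 0.294) and 0.04 in the Set libraries (-0.27 to 0.35, limma, adjusted p = 0.899). The difference between these effects was 0.23 (interval -0.21 to 0.67, limma, adjusted p = 0.420). The ratio of Os02g0620600 to OsAMT1;1 was 0.746 and 0.752 in Root NT against 0.578 and 0.575 in Root ROX, and 0.972 and 0.854 in Set NT against 0.698 and 0.860 in Set ROX.

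Os02g0620500 was hardly detected. It was at 0.0201 and 0 FPKM in Root NT, 0.0201 and 0.0344 in Root ROX, 0.0929 and 0.115 in Set NT, and 0.137 and 0.0947 in Set ROX. At the estimated depths these values stand for 1 and 0, 1 and 2, 6 and 7, and 9 and 6 fragments. It was left out of the tests because its mean FPKM was under 0.5. Os02g0620533, a hypothetical gene whose span covers nearly all of Os02g0620500, was at 1.71 to 2.26 FPKM in the Root and 12.3 to 23.2 FPKM in the Set libraries. How fragments were divided between the overlapping genes is not given in the sources used here, so the levels of both overlapping genes are uncertain. Os02g0620566, which overlaps Os02g0620600, was listed at 0 in all 8 libraries.

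Lower levels in Root ROX were common among all genes. In the Root libraries 4 of the 7 tested uptake genes, the 3 NRT2 genes and Os02g0620600, were lower in ROX without overlap, and so were 47.4% of all genes tested. The neighbours Os02g0112100 and Os02g0112600 are counted apart here, although the division of fragments between them is uncertain. OsNRT1.1B and OsAMT1;1 were higher without overlap, as were 29.5% of all genes. In the Set libraries the same genes, OsNRT1.1B and OsAMT1;1, were higher without overlap, beside 20.1% of all genes, and none was lower without overlap, beside 28% of all genes. No uptake gene was lower without overlap in both sets, as 15.4% of all genes were. The median log2 fold change of the 7 genes was -0.08 over both sets, -0.19 in Root and 0.02 in Set, against -0.05, -0.07 and -0.02 for all genes. When the 4 Root libraries were fitted alone, 5 of the 7 genes were called, OsNRT1.1B as higher and the 3 NRT2 genes and Os02g0620600 as lower. In that fit limma gave an adjusted p of 0.00883 for Os02g0112100, 0.00286 for Os02g0112600, 0.000321 for Os01g0704100 and 0.0352 for Os02g0620600. That fit takes its spread from Root pairs that were very close, and it called 53% of all genes, 20.8% as higher and 32.3% as lower.

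**Figure D3:**
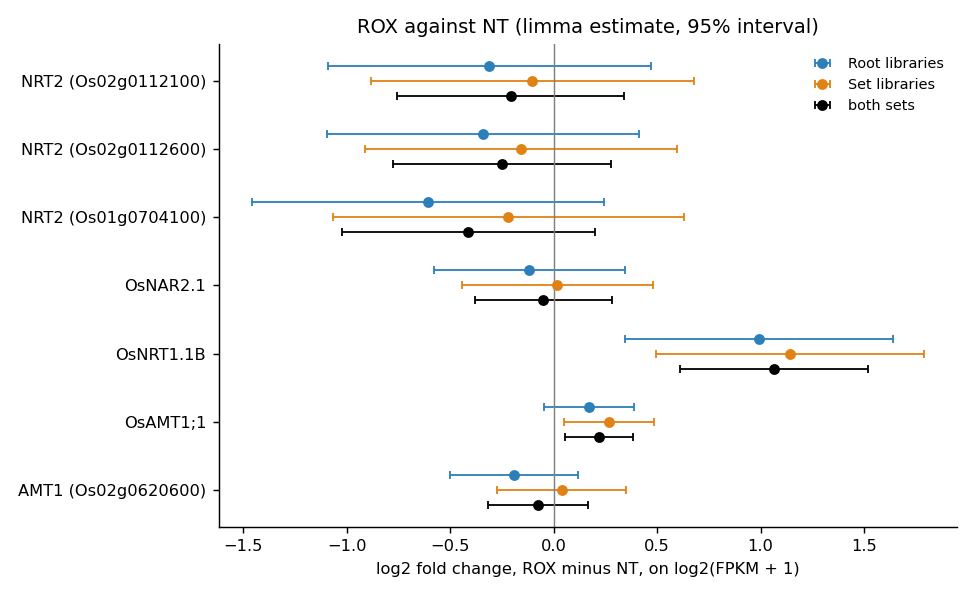
Log2 fold change (ROX minus NT, on log2(FPKM + 1)) of the 7 tested uptake genes for Root libraries (blue), Set libraries (orange) and both sets together (black). Points are limma estimates and bars their 95% intervals, which take the spread from all 8 libraries. The intervals of OsNRT1.1B lie above 0 in all 3 comparisons, and those of the NRT2 genes are wide and include 0.

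None of the 7 genes was called for a difference of the ROX effect between the sets by limma, beside 21.5% of all genes, and none had an unadjusted p under 0.05, beside 35.9% of all genes. Without the second Set NT library, the 3 NRT2 genes passed, with differences of 0.80 for Os02g0112100 (limma, adjusted p = 0.0389), 0.75 for Os02g0112600 (0.0426) and 1.05 for Os01g0704100 (0.00806). Without the first Set ROX library, Os02g0620600 passed with a difference of 0.45 (limma, adjusted p = 0.0242). Over the 17 alternatives the adjusted p ran from 0.0389 to 0.988 for Os02g0112100, from 0.0426 to 0.986 for Os02g0112600, from 0.00806 to 0.791 for Os01g0704100 and from 0.0242 to 0.955 for Os02g0620600.

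The uptake genes differed more between the library sets than between genotypes. In NT roots, limma called 6 of the 7 as higher in Set than in Root and none as lower, beside 37.8% of all genes called as higher and 69% called in either direction. Both Set NT libraries lay above both Root NT libraries for all 7, as for 47.1% of all genes. OsNRT1.1B had the largest difference, a log2 fold change of 4.02 with a 95% interval of 3.37 to 4.67 (limma, adjusted p = 1.59e-05). The NRT2 neighbours followed with 2.99 for Os02g0112100 (2.21 to 3.77) and 2.95 for Os02g0112600 (2.20 to 3.71). OsNAR2.1 was higher by 1.70 (1.23 to 2.16), Os02g0620600 by 1.62 (1.31 to 1.93) and OsAMT1;1 by 1.35 (1.13 to 1.57). Os01g0704100 was at 0.84 (-0.01 to 1.69, limma, adjusted p = 0.0724). That gene passed when the first Set NT library was left out (limma, adjusted p = 0.000129, over all alternatives 0.000129 to 0.262) and stood at 0.18 when the second was left out (limma, adjusted p = 0.262). The 6 calls held in all 16 alternatives. The median of the 7 genes was 1.70 and that of all genes 0.06. The summed leaf markers were lower in the Set libraries, as given above.

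The order of levels changed with the set. FPKM corrects for length, so levels can be ranked between genes within a library. In Root NT the order was Os01g0704100, OsNAR2.1, OsAMT1;1, Os02g0620600, Os02g0112600, Os02g0112100, OsNRT1.1B and Os02g0620500, and no neighbours in this order overlapped. In Root ROX, OsAMT1;1 stood first and OsNRT1.1B moved above both NRT2 genes of chromosome 2, and only OsNAR2.1 and Os01g0704100 overlapped. In Set NT the first 7 genes had means of 68.9 to 123 FPKM and each overlapped the next, so their order was not resolved. In Set ROX, OsNRT1.1B stood first at a mean of 228 FPKM without overlapping the next gene, and the 6 that followed, from 103 down to 58.0, each overlapped their neighbour.

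Nitrate and ammonium move on through further transporters and enzymes, of which 26 were examined as a list of other nitrogen genes, 25 of them tested. Over both sets 1 was called as higher and 1 as lower, beside 2.74% and 4.34% of all genes. Os02g0735200, the glutamine synthetase described as the shoot isozyme, was higher by 0.25 on the log2 scale (limma, adjusted p = 0.0472), from 127 and 123 FPKM in Root NT to 158 and 158 in Root ROX, and from 500 and 521 in Set NT to 578 and 565 in Set ROX. Os07g0658400, a ferredoxin-dependent glutamate synthase, had a log2 fold change of -0.32 (limma, adjusted p = 0.0227), with 70.7 and 69.6 FPKM in Root NT, 53.7 and 51.4 in Root ROX, 49.6 and 51.7 in Set NT, and 44.4 and 42.4 in Set ROX. Neither gene overlapped between genotypes in either set. Among all genes tested, 7.36% were higher and 15.4% lower in ROX without overlap in both sets. The median log2 fold change of the 25 genes was 0.23 over both sets, and that of all genes was -0.05.

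In the Root libraries 7 of the 25 were higher and 2 lower, beside 14.4% and 21.3% of all genes. The higher ones included 4 of 8 genes of the transport group. These were Os04g0480200, which carries the Nar2 domain of the partner protein (5.62 and 5.03 FPKM in NT, 11.2 and 11.3 in ROX), and 3 ammonium transporters, Os05g0468700, Os01g0831300 and Os03g0838400. The largest rise was 1.56 on the log2 scale for Os03g0712800, described as similar to glutamine synthetase root isozyme 2 (limma, adjusted p = 0.000137), from 0.705 and 0.913 FPKM to 4.36 and 4.29. The lower ones were the glutamate synthase and Os01g0357100, a nitrite reductase (98.6 and 95.1 FPKM in NT, 56.6 and 61.5 in ROX). In the Set libraries 4 of the 25 were higher and none lower, beside 3.5% and 4.05% of all genes. These were the nitrate reductases Os08g0468100 (25.0 and 35.5 FPKM in NT, 45.4 and 55.7 in ROX) and Os08g0468700, the nitrite reductase Os02g0765900 and the chloroplast glutamine synthetase Os04g0659100 (79.9 and 96.1 in NT, 161 and 174 in ROX).

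Of the 25 genes, the nitrite reductase Os02g0765900 had the largest difference of the ROX effect between the sets. All its Root values were under 0.5 FPKM, so it passed the filter, a mean of 0.5 over the 8 libraries, only through its Set values. Its place in the tests thus depended on its being high in Set, and its rank gives no support of its own. It was at 0.0779 and 0.119 FPKM in Root NT, 0.0141 and 0.00605 in Root ROX, 1.04 and 1.88 in Set NT, and 11.5 and 12.3 in Set ROX. Its ROX effect was 2.41 in the Set libraries, and the difference from the Root effect was 2.53 (limma, adjusted p = 0.000466). The Root effect was -0.12, at levels close to 0 where log2(FPKM + 1) understates changes, so the difference mostly reflects the Set effect. Among these genes, 3 had a higher and 3 a lower ROX effect in Set than in Root, beside 10.8% and 10.7% of all genes. The other higher ones were Os01g0357100 and Os04g0659100, and the lower ones were Os04g0480200, Os05g0468700 and Os03g0712800. Apart from the pair called over both sets, these genes were named after their values were seen.

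**Figure D4:**
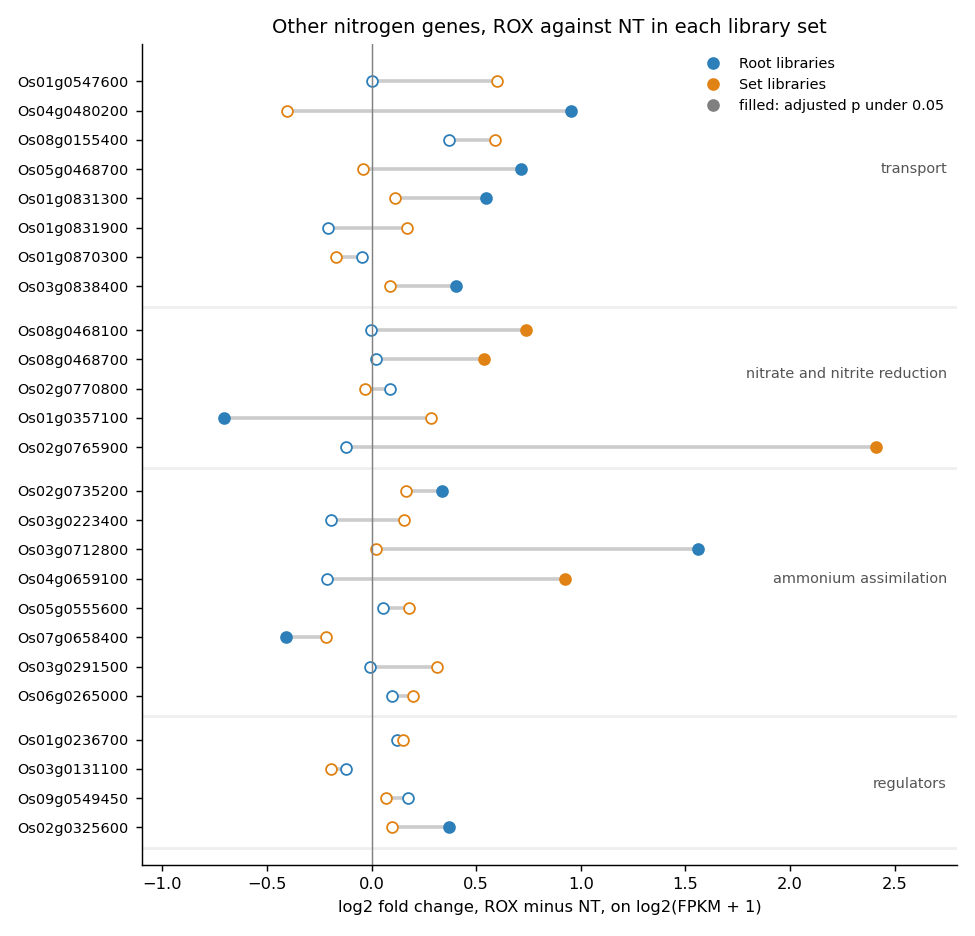
Log2 fold change (ROX minus NT, on log2(FPKM + 1), limma) of the 25 tested nitrogen genes outside the uptake genes, by role, for Root libraries (blue) and Set libraries (orange). Filled points have an adjusted p under 0.05. In the Root libraries 9 points are filled and in the Set libraries 4, and no gene is filled in both.

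In NT roots most of the other nitrogen genes also stood higher in Set than in Root, with 16 of 25 called as higher and 3 as lower, beside 37.8% and 31.2% of all genes. All 5 nitrate and nitrite reductases and all 4 regulators were higher, as were 4 of 8 genes of ammonium assimilation and 3 of 8 genes of the transport group. Of these, Os08g0468700, Os02g0765900 and Os01g0547600 had all Root values under 0.5 FPKM. They passed the filter, a mean of 0.5 over the 8 libraries, only through their Set values, which favoured a call as higher in Set. Os02g0770800, at 0.429 to 0.604 FPKM in the Root libraries, was close to this limit there. The largest difference was 4.04 for the nitrate reductase Os02g0770800 (limma, adjusted p = 4.14e-06), at 0.454 and 0.429 FPKM in Root NT against 18.8 and 27.5 in Set NT. Next came the chloroplast glutamine synthetase Os04g0659100 with 3.15 and the nitrate reductase Os08g0468100 with 3.06. The 3 called as lower were Os04g0480200 with the Nar2 domain (-0.79), the glutamate synthase Os07g0658400 (-0.46) and the asparagine synthetase Os03g0291500 (-0.32). The median over the 25 genes was 0.72, and that of the transport group was 0.16.

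**Figure D5:**
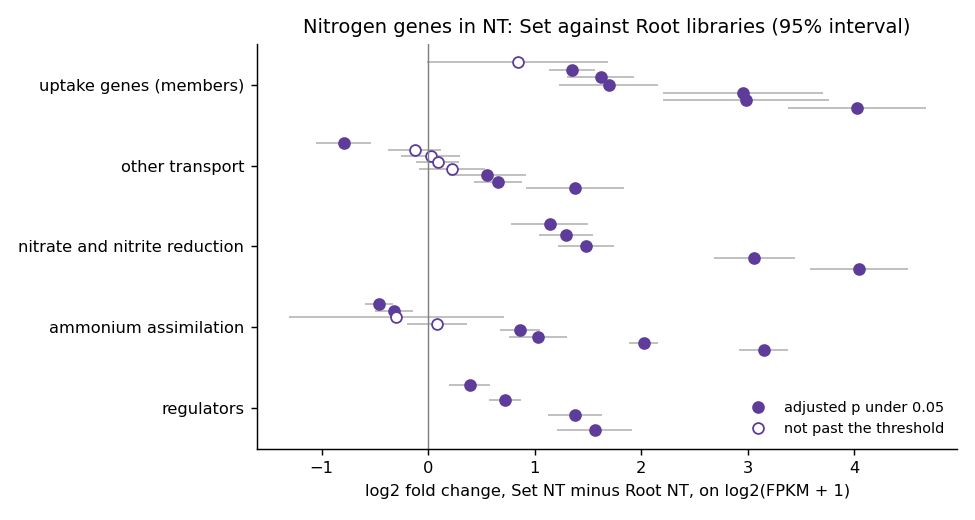
Log2 fold change (Set NT minus Root NT, on log2(FPKM + 1)) of the 7 tested uptake genes and of 25 other nitrogen genes by role. Points are limma estimates, filled where the adjusted p is under 0.05, and bars are 95% intervals. The uptake genes run from 0.84 to 4.02, and all 5 genes of nitrate and nitrite reduction lie above 0. Of these 5, Os08g0468700 and Os02g0765900 passed the filter only through their Set values.

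Among the genes most like Os02g0112100 over the 8 libraries, of 6712 genes compared, were Os03g0684800 (Pearson r = 0.998), a conserved hypothetical gene, and Os05g0573500 (0.996), described as HAP3. Those most like OsAMT1;1 were Os04g0550900 (0.9997), the aquaporin TIP2-3, Os05g0160300 (0.999), a lipid transfer domain gene, and Os01g0284500 (0.999), described as similar to a nectarin. The aquaporin was at 1.25 and 0.987 FPKM in Root NT, 1.68 and 2.51 in Root ROX, 42.3 and 64.2 in Set NT, and 88.7 and 118 in Set ROX, in the same order of libraries as OsAMT1;1. All points share the library set, which makes up most of the range of each gene. Among the uptake genes, Os01g0704100 was least like the others, with r of 0.691 to OsNRT1.1B and 0.881 to Os02g0112600.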

How the data were processed

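Root RNA of NT and ROX OsERF48 plants was sequenced with strand-specific libraries by a service provider. The authors deposited a gene table and a transcript table, both in FPKM, the latter with the transcript length in bases. The submitters' processing notes name the build IRGSP-1.0. The aligner and the counting tool are not given in the sources used here. FPKM corrects for depth and length. Depth was estimated from steps in low FPKM values, of which 94.6% to 95.6% per library lay within 0.1 of a whole fragment. Start positions, which the table counts from 0, were raised by 1 for printing. Of each table, 4 columns that match no sample were not used. Columns were assigned to NT or ROX by name, without a line.

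From the deposited FPKM values, log2(FPKM + 1), a scale that understates changes of low genes, was taken for all genes whose FPKM averaged 0.5 or more, 26136 of 37869. The package limma 3.58.1 in R 4.3.3 (variance trend, Benjamini-Hochberg adjustment over all genes tested, called at an adjusted p under 0.05) gave ROX against NT with the library set as a covariate, and the other 4 comparisons from a fit of 4 means (set by genotype). Fits were tried on simulated data with the same spread in every library, unlike the Root and Set pairs here. No conclusion is drawn from them. Alternatives were a pseudocount of 0.1, no filter, a filter at a mean FPKM of 5, median-ratio scaling, quantile normalization, no variance trend, sums over transcripts, averaged pairs, a replicate block, calls at a 2-fold change with an unadjusted p under 0.05 (the limits of the study's methods), no library set, each set alone and each library left out.

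The members, the lists and the tests were chosen with earlier results of these data known. The text names the 8 uptake genes and their transcripts, the genes of the nitrogen list called over both sets, and for Os02g0112100 and OsAMT1;1 the 3 genes of highest Pearson correlation among those with a mean FPKM of at least 5 and a range of at least 1 on the log2 scale, of which 1 is not reported here. Further nitrogen genes were named after their values were seen. From the list of 27, Os01g0681900 was left out because it is annotated as a non-protein coding transcript. The RefSeq gene table of another assembly held 0 of the 8 identifiers and was not used. Figures were made with Python 3.11.15 and matplotlib 3.10.9.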

Additional observations from a re-analysis of the deposited data

Results flagged for a closer look

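Os01g0704100, an NRT2 gene, had 1 NT library far from the others. The 4 NT values were 38.5, 36.1, 42.2 and 107 FPKM, and the gap between the highest and the next was 0.914 of the whole range, above Dixon's 95% critical value for 4 values. The high value belongs to the second Set NT library, which was the higher of its pair for all 8 uptake genes, from 1.01-fold for Os02g0620600 to 2.54-fold for Os01g0704100. Chance flags about 1 in 20 groups, and the 4 NT libraries come from 2 sets that differ.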

How the results depend on the processing

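Each set and genotype has 2 libraries, and the names do not say which share plants. The Root pairs were much closer than the Set pairs, so a spread estimated from all 8 overstates the noise of the one and understates that of the other. Os02g0620500 is limited by depth, at 0 to 9 fragments per library.

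The counts of called uptake genes, 1 over both sets, 1 in Root, 0 in Set, 0 for the difference between sets and 6 for NT between sets, moved as follows. In Root the count was 0 without a filter, 0 at the 2-fold limits and 5 from the Root libraries alone. Over both sets it was 0 with pairs averaged and 0 with no library set. In Set it was 1 at the 2-fold limits and 1 with a replicate block. Under that block OsNRT1.1B had an adjusted p of 0.00672 in limma in the Set libraries, within a range of 0.00357 to 0.218 over its alternatives. Same-numbered libraries deviated together with a correlation of 0.024 in Root and 0.257 in Set, and whether the numbers mark shared plants or days is not given in the sources used here. The block changed no other call of an uptake gene. Quantile normalization turned OsNAR2.1 in Set from 0.02 to -0.027.

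When single libraries were left out, the count ran from 0 to 1 over both sets, from 0 to 2 in Root, from 0 to 1 in Set, from 0 to 3 for the difference between sets and from 6 to 7 for NT between sets. Without either Set NT library, the second gene called in Root was Os01g0704100 (limma, adjusted p = 0.00593 and 0.00603, within a range of 0.000321 to 0.483). Without the first Set ROX library OsNRT1.1B was called in Set (limma, adjusted p = 0.00357), and without the first Set NT library Os01g0704100 was. Leaving out any single Root library, OsNRT1.1B lost its call in Root (limma, adjusted p from 0.104 to 0.120). Signs turned for these log2 fold changes: over both sets Os02g0112100 (-0.46 to 0.0073) and OsNAR2.1 (-0.18 to 0.058); in Root OsNAR2.1 (-0.27 to 0.032); in Set Os02g0112100 (-0.69 to 0.48), Os02g0112600 (-0.73 to 0.41), Os01g0704100 (-0.88 to 0.44), OsNAR2.1 (-0.28 to 0.32) and Os02g0620600 (-0.18 to 0.26). For the difference between sets they were Os02g0112100 (-0.38 to 0.80), Os02g0112600 (-0.39 to 0.75), Os01g0704100 (-0.28 to 1.05), OsNAR2.1 (-0.17 to 0.44), OsNRT1.1B (-0.32 to 0.62) and OsAMT1;1 (-0.0032 to 0.20). The cause was not tested.

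Over both sets, 715 of all genes were called as higher and 1133 as lower. These counts were 146 and 128 with the block, 1 and 0 with pairs averaged, 39 and 6 with no library set, 343 and 82 at the 2-fold limits, 848 and 734 with scaling by median ratios, and 223 and 183 without the second Root NT library, the smallest total with a library left out. In Root, 3767 and 5574 became 5154 and 8001 from that set alone, and in Set, 916 and 1059 became 202 and 109 from that set alone and 1114 and 824 with median ratios. The 2-fold limits gave 1035 and 245 in Root, 232 and 165 in Set, 413 and 1158 for the difference between sets (2821 and 2806 otherwise) and 3572 and 1784 for NT between sets. With a library left out, the smallest totals were 2291 and 2319 in Root, 493 and 452 in Set and 984 and 1555 for the difference. For NT between sets, 9867 and 8160 became 8025 and 10490 with quantile normalization, which moved the median of all genes from 0.06 to -0.10, and the 6 called uptake genes stayed higher.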
